A study of Rattus norvegicus with 14 samples.

Results

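Complex I, the NADH dehydrogenase of the respiratory chain, takes electrons from NADH, passes them to ubiquinone and pumps protons across the inner mitochondrial membrane. Most of its subunits are nuclear gene products, but the hydrophobic core of its membrane arm is encoded by the mitochondrial genome as mt-Nd1, mt-Nd2, mt-Nd3, mt-Nd4, mt-Nd4l, mt-Nd5 and mt-Nd6. These 7 genes were chosen by their Ensembl IDs, and 6 of them had a row among the 12934 IDs of the count table; mt-Nd4 is not analysed here. The genes are transcribed in long precursors that are cut into separate messages. mt-Nd6 is the only protein-coding gene of mammalian mitochondria whose message comes from transcription of the strand opposite to that of the other members, and mt-Nd4l lies on a message that it shares with mt-Nd4. In the kidney the respiratory chain is most active in the tubule, in particular the proximal tubule, and less so in the glomerulus.

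The messages were counted in isolated cortical glomeruli of male rats of the inbred strain Dahl SS/JrHsdMcwiCrl, in which a salt-rich diet raises blood pressure. High salt rats ate a diet with 4% NaCl and normal salt rats a diet with 0.4% NaCl, both for 21 days from 8 weeks of age, and all rats were of this strain. There were 14 libraries, 7 per diet, each with a sample number between 9 and 24 in its label (odd on high salt, even on normal salt). The meaning of the number is not stated, and no label ties a library to an animal of its own, so the p-values reflect variation among libraries that may be technical. Libraries held 13797146 to 18151197 counts. The libraries were 3' tag libraries, in which each polyadenylated message is read near its 3' end, so counts per message were not divided by length. The count of a message with a short or absent poly(A) tail, or read as part of a longer message, need not follow its amount. The IDs were not paired with names outside the 7 genes, so markers of glomerular and tubular cells, and nuclear complex I genes, could not be read and the purity of the sieved glomeruli was not tested. In such bulk tissue, fewer cells of a type and less RNA per cell cannot be told apart.

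The 6 messages together held 9.89% ± 1.93 of all counts (SD, n = 14). Their share ran from 7.11% in high salt library 21 (Wilson 95% interval 7.10 to 7.12%) to 14.6% in high salt library 15 (14.63 to 14.67%). These intervals, and those given later, cover counting error only. The share of a library was thus set by differences between libraries that were far larger than counting error.

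mt-Nd1 (ENSRNOG00000030644) and mt-Nd2 (ENSRNOG00000031033) were the most abundant of the 6 and nearly equal. mt-Nd1 encodes the subunit next to the site where ubiquinone enters the complex, and mt-Nd2 encodes an antiporter-like subunit of the proton pump. mt-Nd1 had 44378 ± 8531 CPM (counts per 1000000 counts of the library; SD, n = 14) and ranked 4 of 12934 IDs by mean CPM, between rank 4 and rank 6 in single libraries. mt-Nd2 had 42301 ± 9454 CPM and ranked 5. Their levels did not differ beyond their spread: mt-Nd1 exceeded mt-Nd2 in 8 of 14 libraries, and the ratio of their counts lay between 0.823 in normal salt library 16 and 1.29 in normal salt library 22.

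mt-Nd3 (ENSRNOG00000033615), a small subunit whose loop reaches the ubiquinone site, had 9726 ± 1992 CPM (SD, n = 14) and ranked 9. mt-Nd5 (ENSRNOG00000029971), the antiporter-like subunit at the far end of the membrane arm, had 2364 ± 569 CPM and ranked 16. The lowest library of mt-Nd2 stood above the highest of mt-Nd3 (32398 against 13630 CPM), and the lowest of mt-Nd3 above the highest of mt-Nd5 (6140 against 3538 CPM). These steps in the order therefore exceeded the spread between libraries.

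The remaining messages had far fewer counts, which in 3' tag libraries need not follow their amounts. mt-Nd4l (ENSRNOG00000031053), a small subunit beside the proton channels, had 69.6 ± 27.2 CPM and ranked 1853. mt-Nd6 (ENSRNOG00000029042), which sits next to mt-Nd4l and mt-Nd3 proteins in the membrane arm, had 24.8 ± 13.9 CPM. It ranked 4328, so that 66.5% of all IDs had a lower mean CPM. The highest library of mt-Nd4l stood at 140.1 CPM and the lowest of mt-Nd5 at 1609 CPM. The ranges of mt-Nd4l (from 32.0 CPM) and mt-Nd6 (up to 58.3 CPM) overlapped, but within a library mt-Nd4l was the higher in 14 of 14, by 1.48- to 5.18-fold. The rank of mt-Nd6 moved between 2331 in normal salt library 10 and 8012 in high salt library 21.

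**Figure D1:**
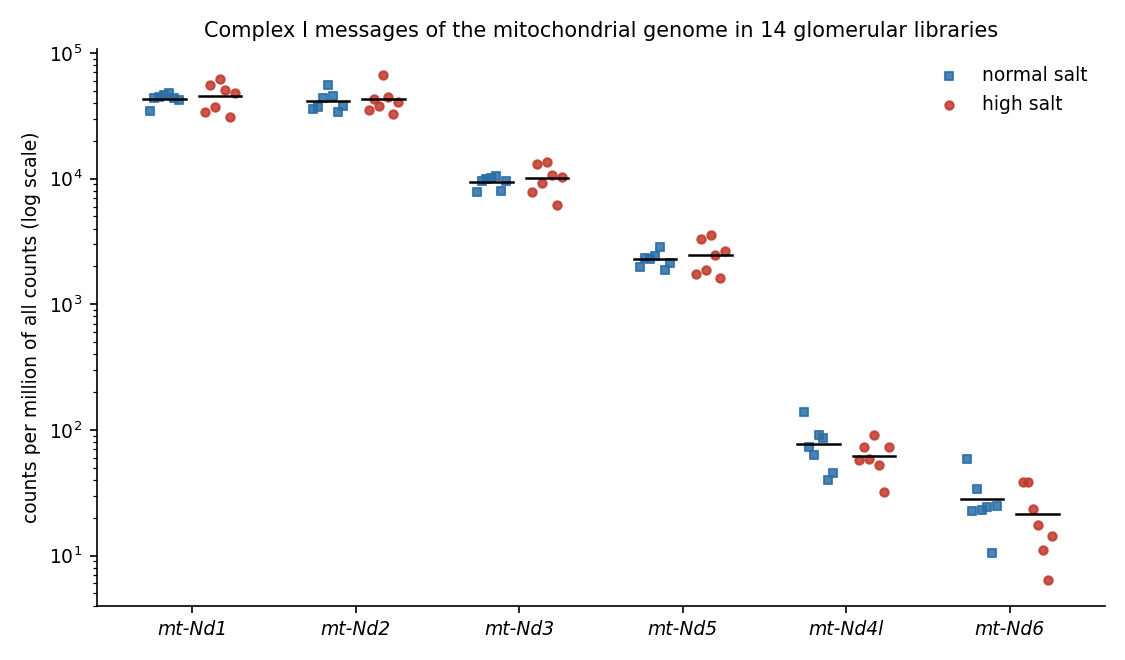
Level of each of the 6 messages in the 14 libraries, in CPM on a log axis. Each point is a library (squares normal salt, circles high salt) and each black line the mean of 7 libraries. Levels fall from about 44378 CPM for mt-Nd1 to 24.8 CPM for mt-Nd6, and the points of both diets overlap for every message.

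The complex holds its mitochondrially encoded subunits in equal numbers, whereas the counts of their messages were unequal. Of the summed counts of the 6 messages, mt-Nd1 made up 44.9% ± 2.69 and mt-Nd2 42.8% ± 3.12 (SD, n = 14). mt-Nd3 made up 9.83% ± 0.715 and mt-Nd5 2.38% ± 0.218. mt-Nd4l made up 0.0714% ± 0.0320 and mt-Nd6 0.0262% ± 0.0174. Relative to their means, the parts of the 4 abundant messages varied less between libraries than those of mt-Nd4l and mt-Nd6.

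The difference in behaviour appeared in the ratios. The log2 CPM of mt-Nd1 had an SD of 0.28 over the 14 libraries, and its log2 ratio to mt-Nd3 an SD of only 0.11. The log2 ratio to mt-Nd5 had an SD of 0.13 and that to mt-Nd2 an SD of 0.19. The ratio of mt-Nd1 to mt-Nd3 counts stayed between 4.07 and 5.55. By contrast, the log2 ratio of mt-Nd1 to mt-Nd4l had an SD of 0.53 and that to mt-Nd6 an SD of 0.91. mt-Nd1 counts exceeded mt-Nd6 counts 592-fold in normal salt library 10 and 4868-fold in high salt library 21. The SD expected from counting alone at the median count of mt-Nd6 was 0.077 on the log2 scale. Among the 6788 IDs of at least 10 CPM with a count in every library, the median SD of log2 CPM was 0.37. On this scale of library totals, mt-Nd1, mt-Nd2, mt-Nd3 and mt-Nd5 varied less than this median, at 0.28, 0.29, 0.30 and 0.34. mt-Nd4l at 0.55 exceeded 89.2% of these IDs, and mt-Nd6 at 0.86 exceeded 99% of them. After scaling by TMM factors, set by the bulk of each library's IDs, the SDs of the 4 were larger, at 0.50, 0.52, 0.52 and 0.56. They were 0.70 for mt-Nd4l and 0.90 for mt-Nd6. The median over all IDs was not computed on that scale, so the ranking holds for library totals only.

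**Figure D2:**
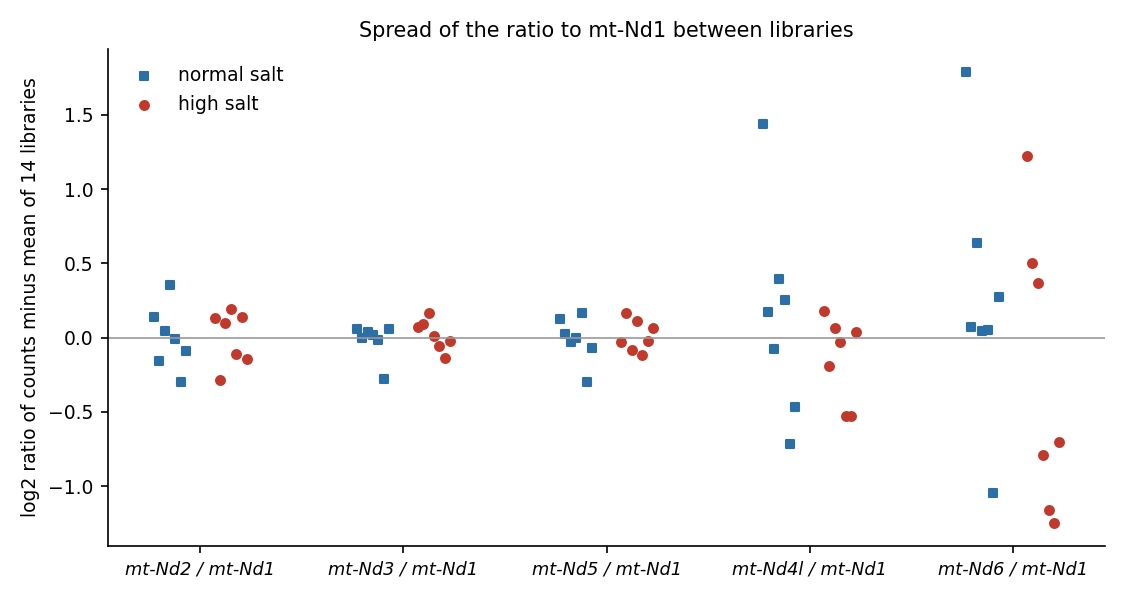
Log2 ratio of each message's counts to mt-Nd1 counts in the same library, with the mean of the 14 libraries subtracted. Points are libraries (squares normal salt, circles high salt). The ratios of mt-Nd2, mt-Nd3 and mt-Nd5 stay close to 0 (SD 0.19, 0.11 and 0.13), and those of mt-Nd4l and mt-Nd6 spread widely (SD 0.53 and 0.91).

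mt-Nd1, mt-Nd2 and mt-Nd3 were among the 10 most abundant IDs of the table. These 10 IDs took 30.8% of counts in high salt library 21 and 64.9% in high salt library 15, the libraries with the lowest and highest share of the complex I messages. The 3 messages made up a steady part of the counts of the 10 IDs, from 18.4% in normal salt library 10 to 22.7% in normal salt library 22. Likeness to the mean of the 6 over the 14 libraries was measured on log2 CPM after TMM scaling. The IDs outside the 6 that were most like it were ENSRNOG00000033299 (Pearson r = 0.97), ENSRNOG00000031766 (r = 0.94) and ENSRNOG00000030700 (r = 0.94), at ranks 24, 6 and 8. They were picked for the highest r among 6759 IDs and share libraries and scaling with the members, so these values are a description. mt-Nd6 followed the mean of the 6 least (r = 0.67), although that mean includes it, whereas the other 5 had r from 0.87 to 0.93.

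The comparison of the diets asks whether salt loading changed these messages. No message differed between the diets beyond the spread of the libraries. edgeR's quasi-likelihood test called 0 of the 6, all of which passed the filter on low counts, at a Benjamini-Hochberg adjusted p below 0.05. The background was 0 called of 11158 tested IDs (0%). Only 202 of the 11158 had an unadjusted p below 0.05, so few that the absence of the 6 among them is near the background share. DESeq2 and limma voom called 0 of the 6 and 0 of the 11158. In the high salt libraries the messages together made up 10.1% ± 2.56 of counts, against 9.66% ± 1.19 in the normal salt libraries (SD, n = 7 each). The means thus differed by 0.447 percentage points, and this difference was not tested. It was less than either SD, which describes single libraries and is not the error of a mean. With the other most abundant IDs left out of the denominator the shares were 17.0% ± 6.80 and 15.2% ± 2.78, a difference of 1.85 points that was also less than either SD. Without high salt library 15 the difference was -0.309 points, and without high salt library 21 it was 0.947 points.

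**Figure D3:**
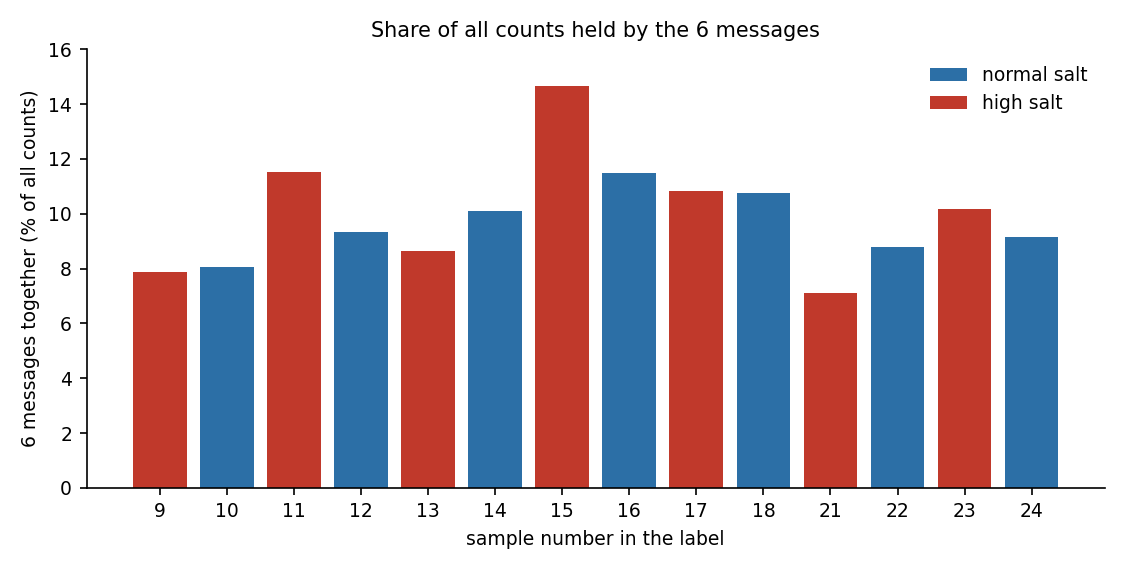
Share of all counts held by the 6 messages together in each library, in percent, with libraries in the order of their sample number (red high salt, blue normal salt). High salt holds both the highest bar, 14.6% in library 15, and the lowest, 7.11% in library 21.

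The high salt libraries had the larger SD for the 4 abundant messages, and without library 15 still did for mt-Nd1, mt-Nd3 and mt-Nd5 but not for mt-Nd2 (4740 against 7691 CPM). mt-Nd1 ran from 30914 CPM through a median of 47661 to 61869 CPM on high salt, and from 34554 CPM through a median of 43938 to 48403 CPM on normal salt. The normal salt range lay wholly inside the high salt range. After scaling by TMM, which divides each library by a factor set by the bulk of its IDs, the log2 fold change of mt-Nd1 was 0.26 ± 0.26 (SE; edgeR, adjusted p = 0.9997, 95% interval -0.29 to 0.82).

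mt-Nd2 ran from 32398 CPM through 40955 to 67345 CPM on high salt, and from 33958 CPM through 37529 to 56106 CPM on normal salt. Library 15 was the highest on high salt and library 16 on normal salt, and the ranges overlapped. The log2 fold change of mt-Nd2 was 0.24 ± 0.28 (SE; edgeR, adjusted p = 0.9997, interval -0.34 to 0.83).

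The smaller mt-Nd3 and mt-Nd5 counts behaved alike. mt-Nd3 ran from 6140 CPM through 10245 to 13630 CPM on high salt, and from 7858 CPM through 9591 to 10474 CPM on normal salt. mt-Nd5 ran from 1609 CPM through 2455 to 3538 CPM on high salt, and from 1890 CPM through 2305 to 2864 CPM on normal salt. For both, the normal salt range again lay inside that of high salt, with library 21 lowest and library 15 highest. Their log2 fold changes were 0.30 ± 0.26 and 0.30 ± 0.28 (SE; edgeR, adjusted p = 0.9997 each).

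The sizes of these 4 fold changes moved with the scaling and with single libraries. High salt library 15 had the smallest TMM factor, 0.660, and after scaling its mt-Nd1 stood at 93780 CPM. Without it the log2 fold changes were 0.04 for mt-Nd1, -0.06 for mt-Nd2, 0.08 for mt-Nd3 and 0.06 for mt-Nd5. Without high salt library 21, the lowest, they were 0.40, 0.38, 0.45 and 0.45 in the same order. Within numbers 9 to 16 they ran from 0.34 to 0.48 and within numbers 17 to 24 from 0.03 to 0.07, and none was called in any of these fits. With libraries scaled to their totals only, the values were 0.07, 0.05, 0.10 and 0.10. The median log2 fold change of the 6 messages was 0.252 with TMM and 0.06 with totals only, beside -0.002 and -0.086 over all tested IDs. The authors' deposited table gives log2 fold changes of 0.27 for mt-Nd1, 0.25 for mt-Nd2, 0.30 for mt-Nd3 and 0.31 for mt-Nd5, from the same counts.

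mt-Nd4l and mt-Nd6, with the fewest counts, had fold changes of the opposite sign that were also within the spread. mt-Nd4l ran from 32.0 CPM through 58.3 to 90.3 CPM on high salt, and from 39.9 CPM through 73.7 to 140.1 CPM on normal salt. The ranges overlapped, and the highest value belonged to normal salt library 10. Its log2 fold change was -0.12 ± 0.33 (SE; edgeR, adjusted p = 0.9997, interval -0.81 to 0.57). It was 0.07 without library 10, 0.05 without high salt library 21, -0.37 without high salt library 15 and -0.31 with library totals only.

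mt-Nd6 ran from 6.35 CPM through 17.4 to 38.6 CPM on high salt, and from 10.4 CPM through 24.5 to 58.3 CPM on normal salt. Library 21 was lowest on high salt, library 22 lowest on normal salt and library 10 highest, and the diets overlapped. The log2 fold change of mt-Nd6 was -0.27 ± 0.39 (SE; edgeR, adjusted p = 0.9997, interval -1.10 to 0.56). Without library 10 it was -0.01, without high salt library 21 -0.08, without high salt library 11 -0.52 and without normal salt library 22 -0.42. With sample number in the model it was -0.47 ± 0.28 (SE, edgeR, adjusted p = 0.961). The intervals of mt-Nd1, mt-Nd2, mt-Nd3 and mt-Nd5 lie within a 2-fold change in either direction, as does that of mt-Nd4l, while that of mt-Nd6 reaches past a 2-fold fall. Within numbers 9 to 16 the log2 fold change of mt-Nd6 was -0.08 ± 0.29 and within numbers 17 to 24 it was -0.83 ± 0.46 (SE; edgeR, adjusted p = 0.977 and 0.999). A change of the diet difference with the number passed the test for 0 of the 6 messages (background 0% of 11158 IDs; edgeR interaction term, adjusted p = 0.998 for mt-Nd6).

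**Figure D4:**
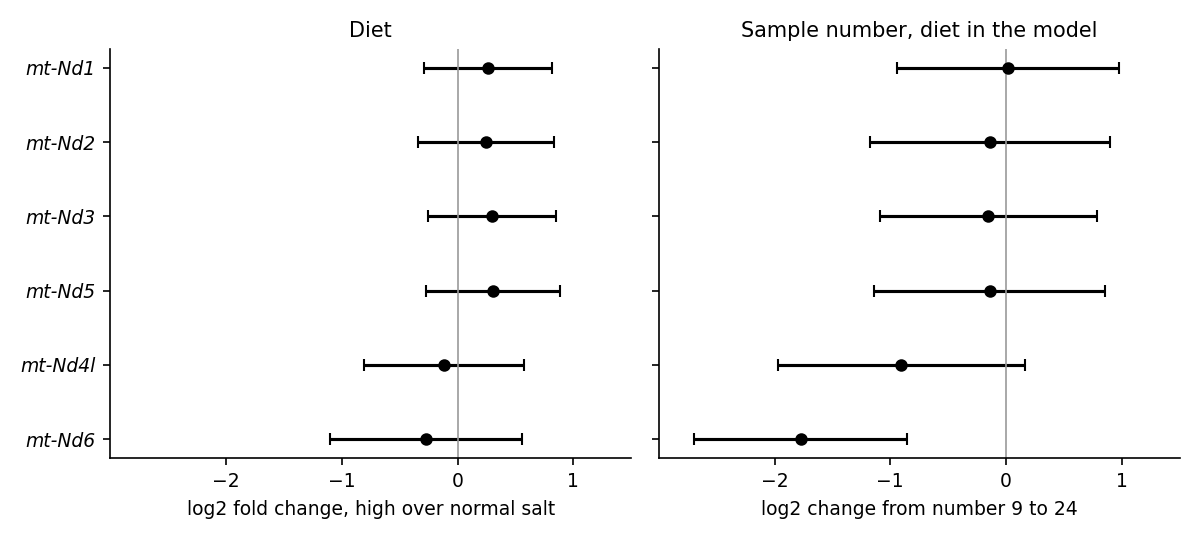
Estimates from the fits of the whole table by edgeR, with 95% intervals. The left panel gives the log2 fold change of high over normal salt and the right panel the fitted log2 change from sample number 9 to 24 with diet in the model. All intervals for diet include 0, and on the right the interval of mt-Nd6 (-2.69 to -0.85) lies below 0 while the other 5 include 0.

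The messages were also tested for a linear trend with the sample number of the label, with diet in the model. The fitted level of mt-Nd6 fell as the number rose, and no other of the 6 passed the test. In the order of the numbers 9 to 16, the first 8 libraries had 17.4 to 58.3 CPM of mt-Nd6, and the 6 libraries numbered 17 to 24 had 6.35 to 24.8 CPM. The means were 32.0 ± 13.3 CPM (SD, n = 8) and 15.2 ± 7.74 CPM (SD, n = 6), and the ranges overlapped. The extremes were 840 counts in normal salt library 10 (58.3 CPM, Wilson 95% interval 54.5 to 62.4) and 98 counts in high salt library 21 (6.35 CPM, interval 5.21 to 7.74). The fall was not steady: over libraries 21, 22, 23 and 24 mt-Nd6 rose from 6.35 through 10.4 and 14.3 to 24.8 CPM.

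From number 9 to number 24 the fitted level of mt-Nd6 fell by 1.77 ± 0.43 on the log2 scale (SE; edgeR, adjusted p = 0.0201), to 0.293 times its start. Of all tested IDs 12.7% were called for a trend, 6.97% for a rise and 5.74% for a fall, so 1 call of 6 is near the background share. By size, the absolute change of mt-Nd6 exceeded that of 97.9% of the 11158 IDs. The call did not hold without normal salt library 10 (log2 change -1.63, adjusted p = 0.0674) or without normal salt library 22 (-1.60, adjusted p = 0.0522; edgeR). In those fits 513 of 11242 and 451 of 11281 IDs were called, against 1418 of 11158 with all libraries. Within the diets, which have 7 libraries each, the log2 change was -2.16 ± 0.63 on high salt and -1.45 ± 0.51 on normal salt (SE; edgeR, adjusted p = 0.290 and 0.156). No tested ID at all was called within either diet.

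The 4 abundant messages did not pass this test. Their fitted log2 changes over the same numbers were 0.02 ± 0.45 for mt-Nd1, -0.14 ± 0.49 for mt-Nd2, -0.15 ± 0.44 for mt-Nd3 and -0.14 ± 0.47 for mt-Nd5 (SE; edgeR, adjusted p from 0.837 to 0.986). mt-Nd4l lay between, with a log2 change of -0.90 ± 0.50 (SE; edgeR, adjusted p = 0.227). Its mean was 80.8 ± 27.2 CPM over numbers 9 to 16 and 54.8 ± 20.7 CPM over numbers 17 to 24 (SD, n = 8 and 6), with overlapping ranges. Within the diets, mt-Nd4l changed by -0.30 ± 0.79 on high salt and -1.55 ± 0.47 on normal salt (SE, edgeR, adjusted p = 0.906 and 0.135). On normal salt its fall was thus no less steep than that of mt-Nd6 (-1.45 ± 0.51).

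To set mt-Nd6 beside the rest, each library was scaled to the summed counts of the other 5 messages, a fit chosen after the data were seen. That sum is mostly mt-Nd1 and mt-Nd2, so mt-Nd6 was not tested against mt-Nd4l. As a percentage of the summed counts of those 5, mt-Nd6 stood at 0.0340% ± 0.0190 over numbers 9 to 16 and at 0.0158% ± 0.00743 over numbers 17 to 24 (SD, n = 8 and 6). It ran from 0.0119 to 0.0724% in the first range and from 0.00893 to 0.0272% in the second. The log2 change of mt-Nd6 relative to the 5 was -1.84 ± 0.47 from number 9 to 24 (SE; edgeR, adjusted p = 0.0182). In that fit 1.47% of the 11158 IDs were called lower at higher numbers. The same fit gave mt-Nd4l a log2 change of -0.93 ± 0.50 (SE; edgeR, adjusted p = 0.462).

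Depth moved with the number to a small extent: total counts were 15323788 ± 1485996 over numbers 9 to 16 and 16043061 ± 1343121 over numbers 17 to 24 (SD, n = 8 and 6). With log2 total counts in the model, the log2 change of mt-Nd6 was -2.38 ± 0.50 (SE; edgeR, adjusted p = 0.0532). This was steeper than -1.77 but no longer called, and 27 of all IDs were called. The other messages also moved down in that fit, to values from -1.56 for mt-Nd4l to -0.48 for mt-Nd1, none called. With the share of the 10 most abundant IDs in the model, the log2 change of mt-Nd6 was -1.76 ± 0.37 (adjusted p = 0.0114). mt-Nd4l was then also called (-0.81 ± 0.25, adjusted p = 0.0442; edgeR). In that fit 1678 of 11158 IDs were called, 857 of them lower at higher numbers. mt-Nd6 lies opposite in strand to its neighbours, and whether the counting used strand is not given in the sources used here. Reads of mt-Nd6 and of antisense RNA from the neighbouring genes therefore cannot be told apart, nor can reads of the 6 genes and of any near-identical nuclear copies.

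**Figure D5:**
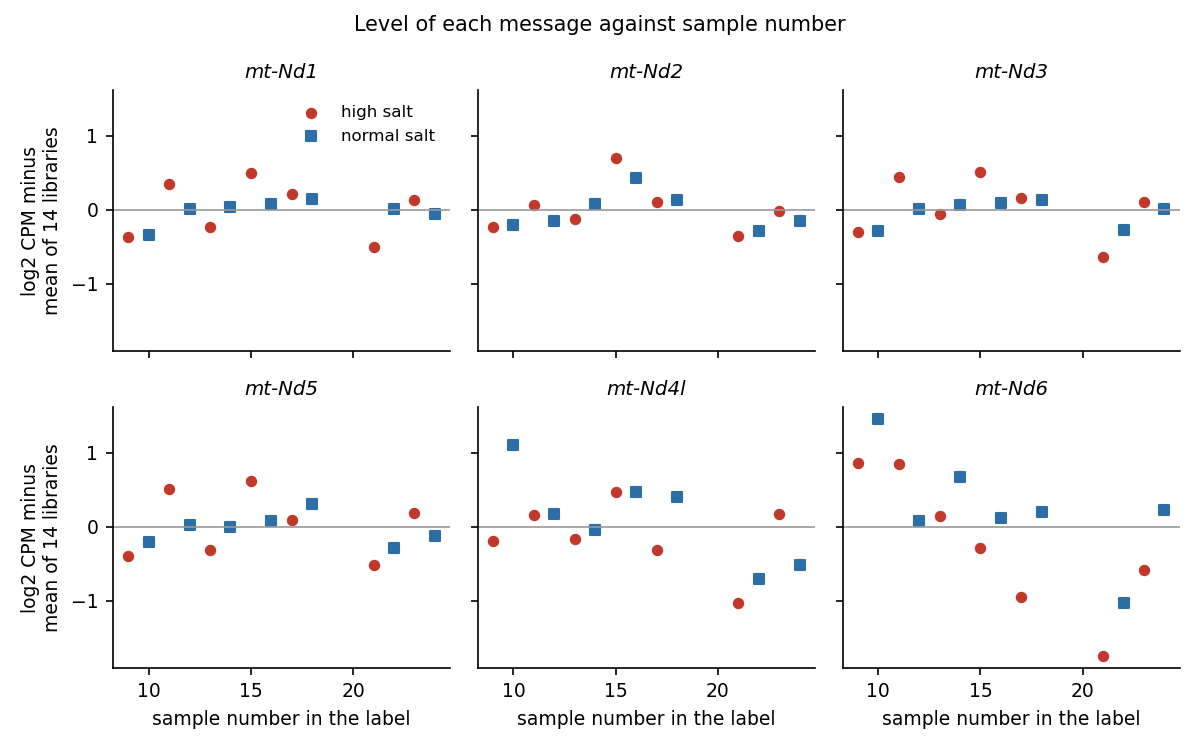
Log2 CPM of each message in each library, as the difference from its mean over the 14 libraries, against the sample number in the label (squares normal salt, circles high salt). The points of mt-Nd6 tend lower from left to right, with library 10 highest and library 21 lowest, but rise from number 21 to number 24. The fitted log2 changes of mt-Nd1, mt-Nd2, mt-Nd3 and mt-Nd5 from number 9 to 24 lie between -0.15 and 0.02.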

How the data were processed

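The authors deposited raw counts per rat Ensembl gene ID for the 14 libraries. A deposited companion table holds a normalized signal, in which each library's counts are divided by a single factor, with the mean of each diet, a signed fold of the means and its log2; only its log2 values, ranks and shares are used. Per the submitters' processing notes, DESeq2 1.18.1 and R 3.4.3 were used, and the build named is GRCm38, a mouse build, although the IDs are rat; no coordinates are given. TRIzol extraction and Lexogen QuantSeq FWD kits were used, per the labels' protocols. For the aligner, the counting and the annotation, nothing is given in the sources used here.

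The symbols of the 7 genes come with the list of IDs. The members, the lists and the test on sample number were chosen with earlier results of these data known. The files name no IDs, and the rat gene table used here holds no Ensembl IDs and no mitochondrial genes, so the lists of nuclear complex I subunits, other mitochondrial genes and cell types were not applied and no sequence is shown. By rule all members and the 3 IDs most like them were named.

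Counts were fitted with edgeR 4.0.16 (R 4.3.3), with TMM factors, the filterByExpr filter and the robust quasi-likelihood F-test, with p-values adjusted by Benjamini-Hochberg over all 11158 tested IDs and called below 0.05. Models held diet, diet and sample number, or their interaction; changes over the number are slopes times 15. Standard errors derive from the F statistic. The code was tested on simulated data. For the correlations, log2 CPM was scaled by TMM and used a prior count of 2. Alternatives included DESeq2 1.42.0 and limma 3.58.1. No library was left out.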

Additional observations from a re-analysis of the deposited data

Results flagged for a closer look

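In each diet group of 7 libraries, 13 measures were checked for a library far from the others (the level of each of the 6 messages, its part of their summed counts, and their share of all counts). Of these 26 groups 3 held such a library, with a gap to the next library of 0.64 to 0.73 of the group's range. The chance rate of about 1 in 20 groups holds for independent, normally distributed values. The measures are not independent and their distribution was not tested, so that rate is no yardstick here. High salt library 15 had 67340 CPM of mt-Nd2, while the other 6 high salt libraries lay between 32400 and 44510 CPM. Normal salt library 10 was apart in both mt-Nd4l and mt-Nd6. mt-Nd4l made up 0.1737% of the summed counts of the 6 messages there and 0.0455 to 0.0800% in the other normal salt libraries. mt-Nd6 made up 0.0723% there and 0.0119 to 0.0337% in the others.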

How the results depend on the processing

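The diet comparison called 0 of the 6 messages under all 27 alternatives run: other scalings, filters, tools, covariates and number ranges, and leaving out each library. None of these fits called any tested ID, so the absence of calls is not particular to the 6. The trend with sample number called 1 of the 6, mt-Nd6, whose log2 change was negative in all 29 alternatives and called in 23. The number called was 0 within high salt libraries and 0 within normal salt libraries, where 0 of 10033 and 0 of 10160 tested IDs were called. It was 0 for numbers 9 to 16 against 17 to 24 (log2 difference -1.14, adjusted p = 0.0587, edgeR), where 0 of 11158 IDs were called. It was 0 at an adjusted p below 0.01. With log2 total counts as a covariate it was 0, and 27 of 11158 IDs were called. It was 2 with the share of the 10 most abundant IDs as a covariate, where 1678 of 11158 IDs were called. Leaving out each library in turn, the number called of the 6 ran from 0 to 1, with a log2 change of mt-Nd6 from -2.22 to -1.50. The call was lost without normal salt library 10 or 22 (the cause was not tested). Calls over all IDs were also fewer in those fits, at 513 of 11242 and 451 of 11281, against 1418 of 11158. The fits scaled to the other 5 messages, those with total counts or the share of the 10 most abundant IDs, and the stricter threshold were added with the data in view.

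Leaving out each library in turn, the difference in the share of all counts ran from -0.309 to 0.947 points. It was 1.85 points with the other most abundant IDs left out of the denominator and, since 1 factor per library leaves shares unchanged, 0.447 points with the authors' normalized values. No paired analysis was possible because the diets share no sample number. In blocks of consecutive numbers, which the labels do not call pairs, 0 of the 6 and 0 of all 11158 tested IDs were called. Depth limits mt-Nd6 most, at 98 to 840 counts per library.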

Other observations

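When each high salt library was set beside the normal salt library with the next number, mt-Nd6 CPM was lower on high salt in 6 of 7 cases, by up to 1.16 on the log2 scale, and higher by 0.78 for numbers 11 and 12. mt-Nd4l was lower in 6 of 7 cases as well, of which those of numbers 11 and 15 differed by only -0.02 and -0.005, and mt-Nd1 in 3 of 7. On the TMM scale mt-Nd6 was lower in 5 of 7 cases and mt-Nd4l in 4 of 7. In blocks of consecutive numbers the log2 fold change of mt-Nd6 was -0.38 ± 0.22 and that of mt-Nd4l -0.14 ± 0.24 (SE; edgeR, adjusted p = 0.861 and 0.957), so neither passed the test.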
